A study of Homo sapiens with 18 samples.

Results

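The retinal dehydrogenases ALDH1A1, ALDH1A2 and ALDH1A3 were followed across the 6 groups of H1650 and PC9, 2 cell lines established from human lung adenocarcinomas that carry mutant EGFR. The 3 genes were taken by name, as the rows whose Ensembl identifier carries their symbol. They are 3 of 60603 rows in the count table of H1650 and 3 of 60649 rows in that of PC9, and all 3 had enough counts to be tested in each line. The series asks what S100A9 does when lung cancers with mutant EGFR spread to the brain. Each line was sequenced in 3 libraries a group of BrM with control treatment, Tr-BrM with control treatment, and Tr-BrM with S100A9-inh. The title speaks of brain metastasis, and the parental cells of the lines are not analysed here. The labels name the groups by condition (BrM or Tr-BrM) and treatment (control or S100A9-inh). The sources used here do not spell out BrM or Tr, the means of inhibition or whether a derivative is 1 clone, and no BrM group with S100A9-inh was analysed. The labels do not tie the 3 libraries of a group to separate cultures, and p-values thus reflect only how far these libraries vary, which may be technical.

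Retinoic acid is made from vitamin A in steps. Retinol is oxidised reversibly to retinal by enzymes such as RDH10, and retinal is then oxidised irreversibly to retinoic acid by the ALDH1A enzymes, which are cytosolic and use NAD as cofactor. Retinoic acid binds nuclear receptors (RAR, paired with RXR), and CYP26 enzymes degrade it. ALDH1A1 is also widely used, through the enzyme activity, as a marker of stem-like cells in lung and other carcinomas. ALDH1A2 is the main source of retinoic acid in the early embryo, and ALDH1A3 serves the developing eye and nose and is often expressed in epithelial tumours.

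The 3 genes lie at 3 loci on 2 chromosomes (GRCh38, gene models of GENCODE 29). ALDH1A1 (ENSG00000165092) is on chromosome 9 from 72900662 to 73080442, reverse strand. ALDH1A2 (ENSG00000128918) is on chromosome 15 from 57953424 to 58497866, reverse strand, and ALDH1A3 (ENSG00000184254) is on the same chromosome from 100877714 to 100916626, forward strand. How the start regions bear on the changes below was not tested, and counts per gene do not tell which start site these cells use. The 250 bases before each start site, from RefSeq (GRCh38.p14), are shown to describe the members. They are chr9:72953054-72953303, reverse strand, for ALDH1A1, chr15:58065712-58065961, reverse strand, for ALDH1A2 and chr15:100879581-100879830, forward strand, for ALDH1A3. Each is written 5′ to 3′ along its gene, with matches to CCAAT, to the GC box GGGCGG and to the octamer ATGCAAAT, on either strand, in capitals.
ALDH1A1: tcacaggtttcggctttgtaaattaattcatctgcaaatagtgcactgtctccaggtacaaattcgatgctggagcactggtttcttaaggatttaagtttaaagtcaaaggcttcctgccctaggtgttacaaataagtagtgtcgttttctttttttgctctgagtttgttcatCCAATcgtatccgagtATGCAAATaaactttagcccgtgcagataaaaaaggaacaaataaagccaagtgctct
ALDH1A2: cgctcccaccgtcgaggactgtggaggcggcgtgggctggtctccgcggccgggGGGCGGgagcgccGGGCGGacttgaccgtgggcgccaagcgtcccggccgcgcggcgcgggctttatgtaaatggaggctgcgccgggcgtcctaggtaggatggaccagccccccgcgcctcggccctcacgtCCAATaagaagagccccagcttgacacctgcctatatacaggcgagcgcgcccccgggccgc
ALDH1A3: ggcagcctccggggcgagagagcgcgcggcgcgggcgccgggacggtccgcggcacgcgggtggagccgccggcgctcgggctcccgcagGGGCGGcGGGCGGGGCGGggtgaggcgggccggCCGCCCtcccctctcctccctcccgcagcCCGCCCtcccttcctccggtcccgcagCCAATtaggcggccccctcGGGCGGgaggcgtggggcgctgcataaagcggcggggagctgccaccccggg

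GC content was 38.4% before ALDH1A1, 72.8% before ALDH1A2 and 82.4% before ALDH1A3, against a median of 58% over 35114 windows of the same length. The ALDH1A1 window held 6 CpG pairs, that of ALDH1A2 33 and that of ALDH1A3 38. A CCAAT match stood in each, beginning at -74, -62 and -71 counted back from the start site, and 32% of all windows hold one. The GC box was matched 2 times before ALDH1A2, 6 times before ALDH1A3 (2 of these matches overlap each other) and not before ALDH1A1, and 42.6% of all windows hold at least 1. The octamer matched at -58 in ALDH1A1 and in 1.63% of all windows. The TATA box TATAAA had no match in these windows and is in 10.7% of all windows. The half-site of retinoic acid receptors, AGGTCA, had none either and is in 12.1%, while its direct repeat with a spacer of 5 bases, also unmatched, is in 0.00285%. The AP-1 site TGACTCA, in 4.2% of all windows, was also unmatched. RefSeq gives another start site for ALDH1A2, at chr15:58014024-58014273, whose window has a GC content of 41.6%, 1 CpG pair and no match to any of these motifs.

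The H1650 libraries held 17.4 to 27.11 M counts each and the PC9 libraries 18.17 to 21.75 M. S100A9, the gene named as the target, had its lowest level under S100A9-inh in each line. Against the Tr-BrM control it fell by 1.67 ± 0.0512 (log2 fold change, SE) in H1650 and by 4.49 ± 0.0487 in PC9. From BrM to Tr-BrM control S100A9 rose by 0.56 ± 0.0489 in H1650 and by 2.61 ± 0.0424 in PC9. CPM is counts scaled to a library of 1 M after edgeR's TMM adjustment. The epithelial markers of the line (EPCAM, keratins and others) summed to 11286.5 to 11340.2 CPM in H1650 BrM, 9408.0 to 9726.4 in Tr-BrM control and 9169.8 to 9517.8 under S100A9-inh. In PC9 they summed to 27063.5 to 27515.5, 21410.6 to 21898.6 and 22142.8 to 24301.3 CPM. From BrM to Tr-BrM control 6 of 8 tested fell and 1 rose in H1650 (5692 of 17937 tested genes fell). In PC9 5 of 8 fell and 1 rose (4900 of 16169 fell). The lung lineage factor NKX2-1 was almost without counts in both lines, with 3, 20 and 27 counts over the 3 libraries of the groups in H1650 and 3, 8 and 0 in PC9. The astrocyte marker list, taken in because the series concerns brain metastasis, summed to 37.6 to 45.9 CPM in the H1650 BrM controls, 273 to 283 CPM in Tr-BrM control libraries and 215 to 229 CPM under S100A9-inh, with counts for 12 of 12 markers, and 9 of 11 tested markers rose from BrM to Tr-BrM control. In PC9 that list summed to 34.2 to 35.7, 118 to 120 and 53.7 to 58.5 CPM. SLC1A3 alone made up much of the Tr-BrM control level in each line, with a mean of 165 CPM in H1650 and 97.6 CPM in PC9. In the PC9 Tr-BrM controls AQP4, GJA1, S100B, FABP7 and SLC4A4 had no count. The fibroblast list rose in H1650 in 6 of 6 members, from 23.1 to 23.3 CPM in BrM to 159 to 180 CPM in Tr-BrM control libraries and 181 to 189 CPM under S100A9-inh, while in PC9 it summed to 26.7 to 27.2, 12.8 to 15.1 and 17.3 to 20.1 CPM, with DCN and LUM at 0 in the BrM and Tr-BrM controls. Replicate 1 of PC9 S100A9-inh stood apart from replicates 2 and 3 (chi-square per degree of freedom of their counts 6.51 and 5.85), and its values are given with the others below.

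In PC9, ALDH1A1 was the member that moved most: its RNA was low in BrM, far higher in Tr-BrM control and lower again under S100A9-inh. The level in the BrM controls was 2.11, 2.28 and 2.18 CPM, from 43, 47 and 47 counts. In the Tr-BrM controls it was 107.3, 113.4 and 112.9 CPM, from 2061, 2331 and 2207 counts. Under S100A9-inh it was 11.03, 10.8 and 11.6 CPM, from 228, 234 and 216 counts. The 3 groups stood fully apart, with S100A9-inh between the controls, and replicate 1 of S100A9-inh lay within the range of its group. ALDH1A1 rose 50.6-fold from BrM to Tr-BrM control (log2 5.66 ± 0.0843, SE, n = 3 against 3, edgeR quasi-likelihood test, adjusted p = 1.79e-30). That is place 35 from the top among 16169 tested genes ordered by fold change. Under S100A9-inh it fell 9.99-fold against the Tr-BrM control (log2 -3.32 ± 0.0648, adjusted p = 3.81e-27), place 15 from the bottom, and it stayed above the BrM control by 2.34 ± 0.113 (adjusted p = 4.79e-17).

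In H1650, ALDH1A1 was a gene of few counts that was raised in Tr-BrM and stayed raised under S100A9-inh. The BrM controls had 0.361, 0.364 and 0.591 CPM, from 8, 8 and 10 counts. The Tr-BrM controls had 3.80, 3.91 and 3.69 CPM, from 73, 107 and 76 counts, and the S100A9-inh libraries had 2.75, 1.86 and 2.95 CPM, from 75, 44 and 77 counts. All 6 Tr-BrM libraries lay above the BrM controls, and the S100A9-inh libraries lay below all Tr-BrM controls, replicate 2 lowest. ALDH1A1 rose by 3.14 ± 0.257 (log2, adjusted p = 1.12e-11) from BrM to Tr-BrM control and was 2.55 ± 0.270 above BrM under S100A9-inh (adjusted p = 2.40e-09). It fell under S100A9-inh against the Tr-BrM control (-0.59 ± 0.175, adjusted p = 0.0117). The last call is lost without S100A9-inh replicate 2, at -0.42 with an adjusted p of 0.0765, and with DESeq2, at -0.59 with an adjusted p of 0.0768. In bulk RNA, fewer cells with the transcript and less of it per cell cannot be told apart, and the rise in H1650 goes with several marker lists. Beside the astrocyte and fibroblast lists above, 6 of 8 tested microglia and myeloid markers rose and 1 fell (median 2.21). Their sums were 94.3 to 96.0 CPM in BrM and 105 to 110 CPM in Tr-BrM control. Of the oligodendrocyte markers 3 of 4 rose (211 to 215 and 225 to 231 CPM). Of the neuron markers 1 of 7 tested rose and 2 fell, and of the endothelial markers 2 of 6 rose. Among all tested genes of H1650, 5777 of 17937 rose at this step and 5692 fell. In PC9 the summed astrocyte list went up and down at the same steps as ALDH1A1, with 2 of 4 tested markers rising. The endothelial list did so too, from 22.9 to 26.6 CPM in BrM to 40.7 to 41.4 CPM in Tr-BrM control and 23.6 to 28.4 CPM under S100A9-inh. Of its tested markers 3 of 3 rose, and CLDN5 and KDR had no count in Tr-BrM control. The summed neuron list also went up and down, with 1 of 4 tested markers rising. The microglia and myeloid, oligodendrocyte and fibroblast sums were lower in Tr-BrM control than in BrM. Among all tested genes of PC9, 4784 of 16169 rose from BrM to Tr-BrM control and 4900 fell. The part of these lists in the ALDH1A1 result was not tested in either line.

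**Figure D1:**
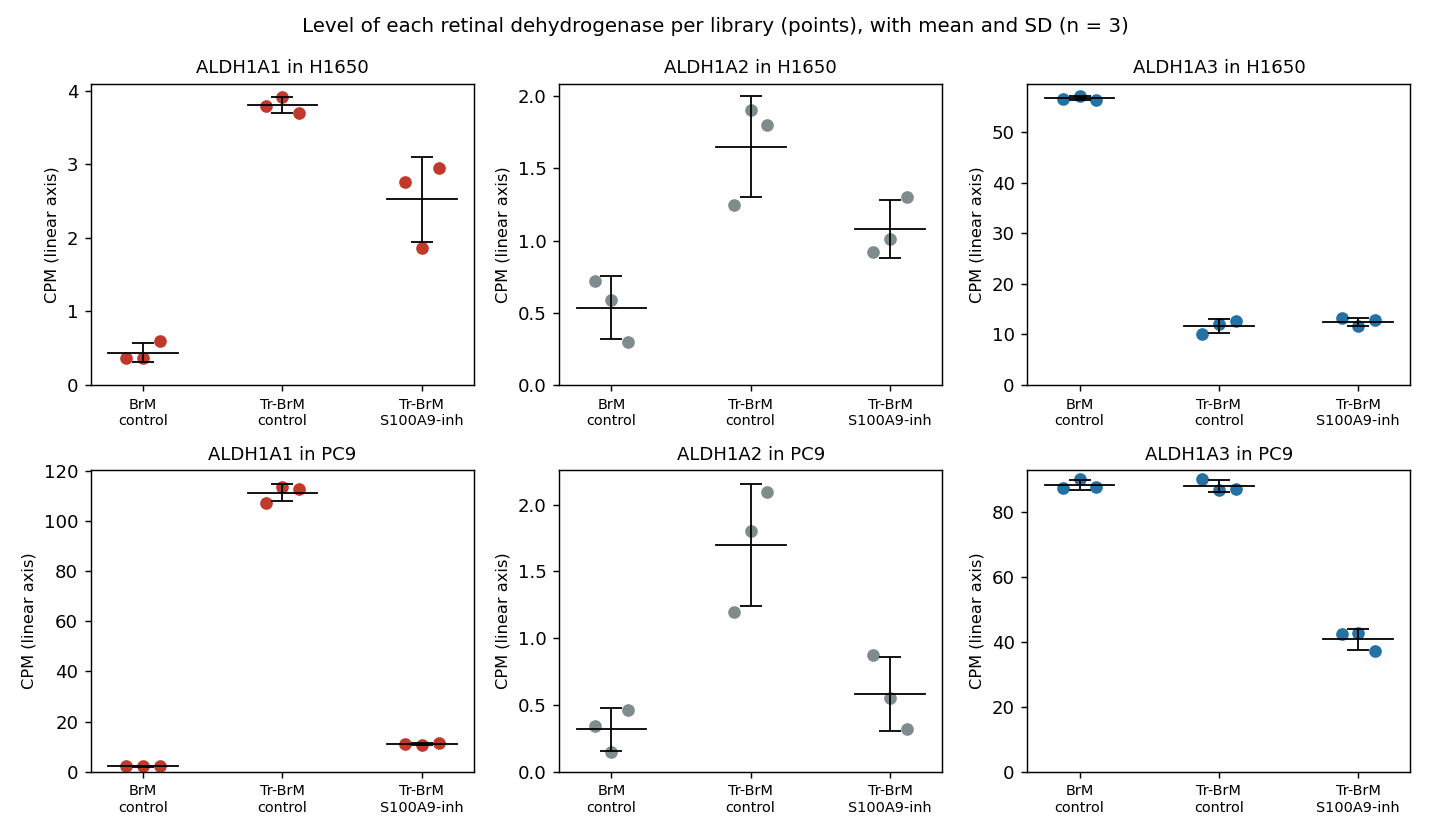
Level of each retinal dehydrogenase (CPM, linear axis) in every library of H1650 and PC9, by group. Points are libraries, bars are group means and error bars are SD. PC9 ALDH1A1 goes from 2.11 to 2.28 CPM in BrM to 107.3 to 113.4 CPM in Tr-BrM control and 10.8 to 11.6 CPM under S100A9-inh, while ALDH1A3 is lower in all 6 Tr-BrM libraries of H1650 and, in PC9, only in the S100A9-inh libraries.

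ALDH1A3, the member with the most counts per length in BrM of both lines, went down at a different step in each line: between BrM and Tr-BrM in H1650, and under S100A9-inh in PC9. In H1650 the BrM controls had 56.6, 57.3 and 56.4 CPM, from 1254, 1259 and 953 counts. The Tr-BrM controls had 10.04, 12.1 and 12.7 CPM, from 193, 331 and 261 counts, and S100A9-inh had 13.2, 11.6 and 12.8 CPM, from 359, 275 and 334 counts. BrM stood far above both Tr-BrM groups, which overlapped with each other. ALDH1A3 fell by 2.28 ± 0.0691 (log2, adjusted p = 1.08e-21) from BrM to Tr-BrM control, place 294 from the bottom of 17937 tested genes. S100A9-inh against Tr-BrM control gave 0.11 ± 0.0816 (adjusted p = 0.368), and against BrM ALDH1A3 fell by 2.18 ± 0.0666 (adjusted p = 1.49e-21).

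In PC9 the BrM controls had 87.4, 90.3 and 87.7 CPM of ALDH1A3, from 1782, 1858 and 1888 counts, and the Tr-BrM controls had 90.2, 86.9 and 87.1 CPM, from 1732, 1787 and 1703 counts. These 2 groups lay on top of each other, with a difference of -0.0063 ± 0.0508 (log2, 95% interval -0.11 to 0.10, adjusted p = 0.925). Under S100A9-inh the libraries had 42.4, 42.8 and 37.1 CPM, from 877, 929 and 691 counts, all below every control library. ALDH1A3 fell by 1.11 ± 0.0545 against the Tr-BrM control (adjusted p = 7.47e-17) and fell by 1.11 ± 0.0543 against BrM (adjusted p = 5.65e-17). The antisense gene ALDH1A3-AS1 overlaps 1585 of the 5772 exon bases of ALDH1A3 on the other strand, and the sources used here do not say whether counting used strand. Its counts were 6.46 to 10.6% of those of ALDH1A3 in every library, and it moved by -1.98 ± 0.209 from BrM to Tr-BrM control in H1650 and by -0.90 ± 0.150 under S100A9-inh against Tr-BrM control in PC9, the same steps as ALDH1A3. Without strand, reads of the gene and of its antisense partner cannot be told apart.

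ALDH1A2 was near the lower limit of what was tested, with 3 to 52 counts per library, and each line had its highest level in Tr-BrM control. In H1650 the BrM controls had 0.723, 0.591 and 0.296 CPM (16, 13 and 5 counts), the Tr-BrM controls 1.25, 1.90 and 1.80 CPM (24, 52 and 37 counts) and S100A9-inh 0.918, 1.01 and 1.30 CPM (25, 24 and 34 counts). Both Tr-BrM groups lay above BrM and overlapped with each other. ALDH1A2 rose by 1.58 ± 0.311 (log2, adjusted p = 6.24e-05) from BrM to Tr-BrM control. The difference of S100A9-inh from Tr-BrM control was -0.63 ± 0.264 (95% interval -1.17 to -0.09, adjusted p = 0.0747). S100A9-inh stood above BrM by 0.95 ± 0.327 (adjusted p = 0.0126), a call that is lost with DESeq2 (adjusted p = 0.0501), without BrM replicate 3 (0.71) and without S100A9-inh replicate 3 (0.79).

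In PC9, ALDH1A2 had 0.343, 0.146 and 0.464 CPM in the BrM controls (7, 3 and 10 counts), 1.20, 1.80 and 2.10 CPM in Tr-BrM control libraries (23, 37 and 41 counts) and 0.871, 0.553 and 0.322 CPM under S100A9-inh (18, 12 and 6 counts). The Tr-BrM controls lay above all other libraries, and BrM and S100A9-inh overlapped. It rose by 2.39 ± 0.412 (log2, adjusted p = 9.52e-06) and fell by 1.52 ± 0.371 under S100A9-inh (adjusted p = 0.000918). S100A9-inh against BrM gave 0.87 ± 0.486 (95% interval -0.13 to 1.86, adjusted p = 0.149). AQP9, a water channel gene on the other strand, shares 354 of the 8622 exon bases of ALDH1A2 and had 13, 98 and 52 counts over the 3 groups of H1650, with a rise of 2.76 ± 0.452 to Tr-BrM control; its part in the ALDH1A2 counts of H1650 was not tested. In PC9 AQP9 had 0, 4 and 0 counts.

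All 3 members passed the test from BrM to Tr-BrM control in H1650, where 63.9% of tested genes did, and 2 of 3 in PC9, where 59.9% did. Of the 3, 1 passed under S100A9-inh against Tr-BrM control in H1650 (29.2% of tested genes) and 3 in PC9 (52.5%). Against BrM, 3 passed in H1650 under S100A9-inh (63.6%) and 2 in PC9 (46.3%). Passing the test is therefore common in these libraries. Changes of at least 2-fold that pass made up 20.6% of tested genes from BrM to Tr-BrM control in H1650 and 12.7% in PC9, then 2.04% and 7.81% under S100A9-inh against Tr-BrM control, and 19.5% and 7.4% under S100A9-inh against BrM. The groups of libraries did not overlap for 3 of 3 members from BrM to Tr-BrM control in H1650 (67.5% of tested genes) and for 2 of 3 in PC9 (65.7%). Under S100A9-inh against Tr-BrM control they did not overlap for 1 of 3 in H1650 (39.2%) and 3 of 3 in PC9 (56.3%), and against BrM for 3 of 3 in H1650 (66.7%) and 2 of 3 in PC9 (52.9%). The comparisons with Tr-BrM control share those control libraries, and those with BrM share the BrM libraries.

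**Figure D2:**
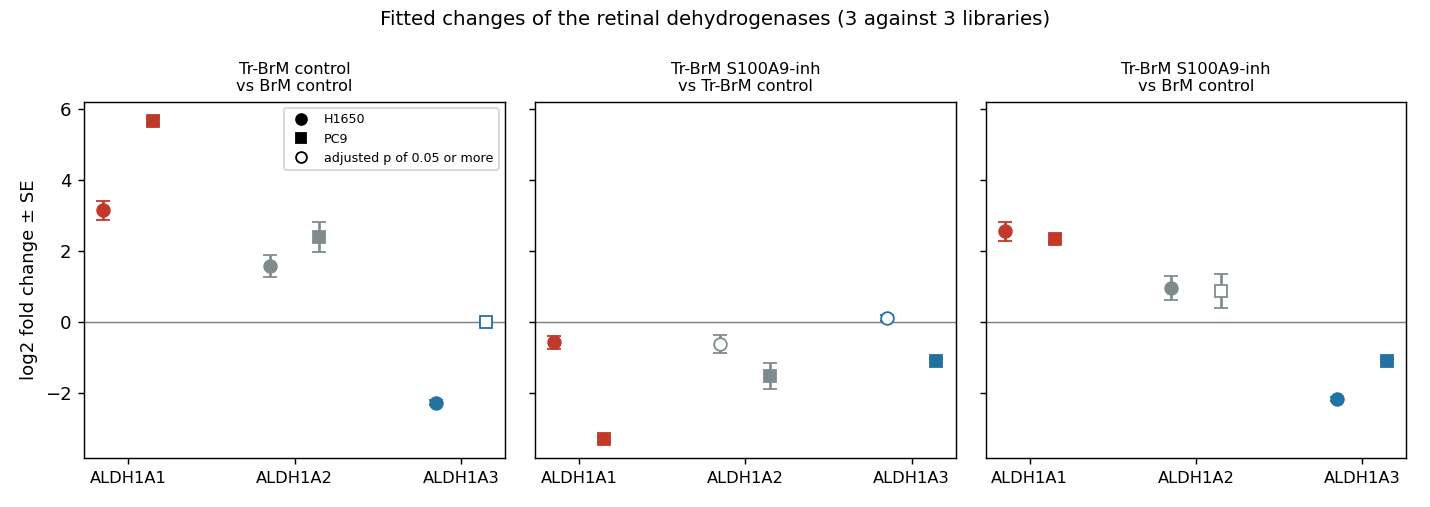
Log2 fold change of each member in the 3 comparisons of each line. Points are edgeR estimates and bars are SE. The 95% interval of PC9 ALDH1A3 from BrM to Tr-BrM control, which is not drawn, runs from -0.11 to 0.10. ALDH1A1 of PC9 lies farthest from 0, at 5.66 and -3.32.

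The size of the change differed between the lines for ALDH1A1 and ALDH1A3, by the interaction test in 1 edgeR model of all 18 libraries. From BrM to Tr-BrM control, the log2 fold change of ALDH1A1 was higher in PC9 than in H1650 by 2.52 ± 0.373 (adjusted p = 2.05e-07), and 54.6% of 19076 genes passed this test. That of ALDH1A3 was -2.28 in H1650 and -0.0063 in PC9, a difference of 2.27 ± 0.0871 (adjusted p = 1.69e-24), so that its larger change was the fall in H1650. Under S100A9-inh against Tr-BrM control the difference between lines was -2.73 ± 0.166 for ALDH1A1 (adjusted p = 3.41e-17) and -1.21 ± 0.0993 for ALDH1A3 (adjusted p = 2.72e-13), where 40.4% of genes passed. Under S100A9-inh against BrM it was 1.06 ± 0.0880 for ALDH1A3 (adjusted p = 1.12e-13; 50.2% of genes passed), since that gene was below BrM by more in H1650. For ALDH1A1 the latter difference was -0.22 (95% interval -0.82 to 0.39, adjusted p = 0.592): with the rise and fall of PC9 summed, the S100A9-inh libraries stood above BrM by 2.34 in PC9 and 2.55 in H1650. ALDH1A2 gave differences between lines of 0.81 (95% interval -0.30 to 1.92), -0.89 (-1.81 to 0.036) and -0.081 (-1.36 to 1.20), none of which passed (adjusted p = 0.223, 0.123 and 0.959).

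Levels were compared between the genes only per length, as CPM per kb of exon. In H1650 BrM, ALDH1A3 made up 97.8% of the summed level of the 3 members and ALDH1A1 1.53% ± 0.468 (SD, n = 3). In the Tr-BrM controls ALDH1A1 made up 41.4, 37.2 and 35.0% and under S100A9-inh 28.8, 23.4 and 30.4%, so that ALDH1A3 was still the larger in each of these 6 libraries. In PC9 ALDH1A1 made up 4.65, 4.87 and 4.79% in BrM, 70.5, 72.3 and 72.1% in the Tr-BrM controls and 34.2, 33.6 and 38.6% under S100A9-inh. The PC9 Tr-BrM controls were thus the group in which ALDH1A1 exceeded ALDH1A3, by 1.35 ± 0.0739 (SD) in log2 of the ratio, against -0.85 ± 0.168 under S100A9-inh and -4.32 ± 0.0346 in BrM. ALDH1A2 was at most 5.37% of the sum in any group of H1650 and 0.605% in any group of PC9. These shares are given as a description: an exact permutation test of 3 libraries against 3 cannot give a p below 0.1, and no other test of them was run.

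The summed level of the 3 members went in opposite directions in the 2 lines between BrM and Tr-BrM control. In H1650 it was 10.05 ± 0.0592 CPM per kb (SD, n = 3) in BrM, 3.54 ± 0.278 in the Tr-BrM controls and 3.18 ± 0.349 under S100A9-inh. The same sum over the PC9 groups, in that order, gave 16.1 ± 0.290, 54.5 ± 0.908 and 11.05 ± 0.439. Set among all tested genes of the line by level per kb, ALDH1A1 of PC9 stood at percentile 23.4 in BrM, 93.4 in Tr-BrM control and 53.8 under S100A9-inh, and ALDH1A1 of H1650 at 9.5, 35.7 and 28.6. ALDH1A3 stood at 74.4, 42.7 and 44.1 in H1650 and at 82.5, 82.5 and 67.7 in PC9. ALDH1A2 stayed at or below percentile 8.13 in every group, so its changes of more than 2-fold took place among the lowest genes tested.

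**Figure D3:**
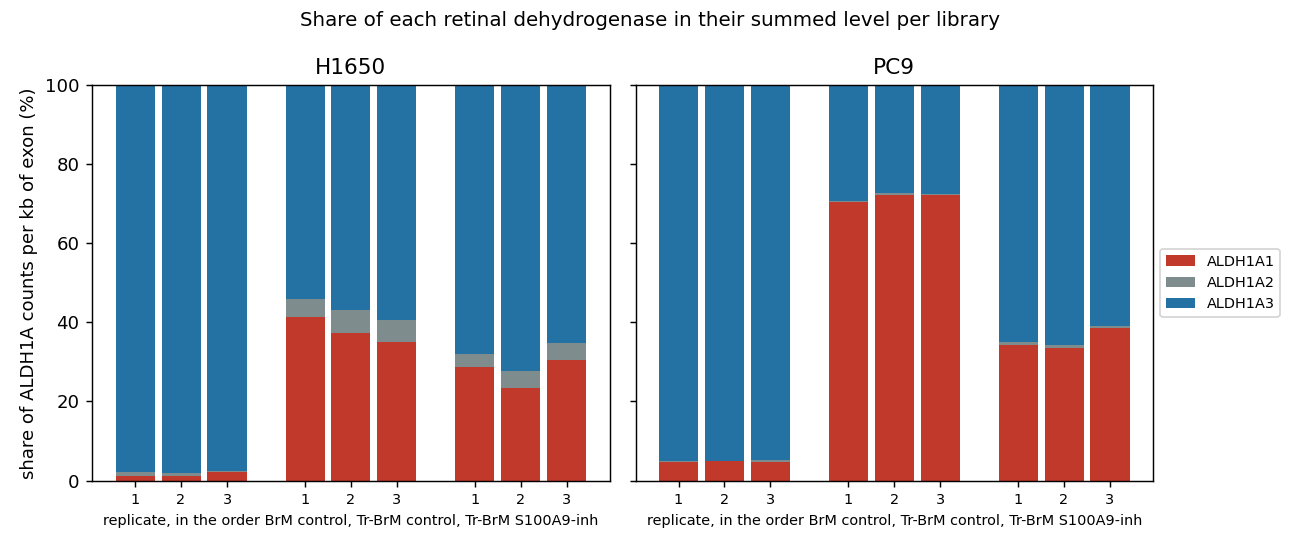
Share of each member in the summed level per kb of exon of the 3 (percent) for every library, by group and line. ALDH1A3 fills 97.8% of H1650 BrM, and ALDH1A1 exceeds it in the 3 PC9 Tr-BrM controls, at 70.5 to 72.3%.

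Upstream of the members, the genes that bind, carry and store retinoids did not move as a block. From BrM to Tr-BrM control 5 of 10 tested members of the list rose and 4 fell in H1650, where 63.9% of all tested genes passed. In PC9 3 of 9 rose and 4 fell, where 59.9% passed. CRABP2, which carries retinoic acid to its receptors, fell in H1650 (-2.06 ± 0.0367), from 1238 ± 11.1 to 298 ± 11.2 CPM (SD, n = 3), and rose in PC9 by 0.59 ± 0.0409. FABP5, a fatty acid carrier that can also take retinoic acid, rose by 2.10 ± 0.0620 in H1650 and by 1.37 ± 0.227 in PC9, there at only 1.14 to 2.96 CPM in the means. STRA6, the cell-surface receptor for retinol bound to its plasma carrier, had 85.2 CPM in both control groups of PC9 and fell by 0.60 ± 0.0554 under S100A9-inh, and in H1650 it had at most 1.31 CPM in a group mean. Of this list 2 rose and 2 fell under S100A9-inh against Tr-BrM control in H1650, and 3 rose and 2 fell in PC9. At that step 29.2% of all tested genes passed in H1650 and 52.5% in PC9.

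Among the enzymes that make the substrate of the members, changes differed in size and direction between genes. RDH10, the main enzyme from retinol to retinal in development, rose from BrM to Tr-BrM control by 0.34 ± 0.0596 in H1650 and 0.39 ± 0.0863 in PC9, and under S100A9-inh it rose by 0.41 ± 0.0544 in H1650 and fell by 0.84 ± 0.0903 in PC9. DHRS9, another retinol dehydrogenase, rose by 2.24 ± 0.378 in PC9, from 0.398 to 1.91 CPM, and fell there under S100A9-inh (-1.13 ± 0.332), while in H1650 it fell at both steps (-0.34 ± 0.0719 and -0.32 ± 0.0740). RDH11 fell in PC9 by 0.76 ± 0.0522 from BrM to Tr-BrM control and rose under S100A9-inh by 0.82 ± 0.0521. SDR16C5 rose in H1650 by 4.48 ± 0.883 from BrM to Tr-BrM control, from 0.0152 to only 0.494 CPM. Of the 6 tested genes of this list, 2 rose and 3 fell in H1650 from BrM to Tr-BrM control (63.9% of all tested genes passed). In PC9 3 rose and 1 fell (59.9%). With S100A9-inh set against Tr-BrM control, 2 rose and 1 fell in H1650 (29.2%), and 1 rose and 3 fell in PC9 (52.5%).

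The enzymes that turn retinal back into retinol, and so compete with the members for it, included 2 of 6, AKR1B1 and RDH14, that passed in opposite directions in the lines. Between BrM and Tr-BrM control AKR1B1, an aldo-keto reductase, fell in H1650 from 441 to 156 CPM (adjusted p = 1.74e-24), and rose by 0.94 ± 0.0338 in PC9, and its relative AKR1B10, an efficient retinal reductase, rose by 1.33 ± 0.0326 in PC9 and had 0.449 and 0.516 CPM in these groups of H1650. Under S100A9-inh both fell in PC9 (-0.80 ± 0.0337 and -0.42 ± 0.0318). Over the list, 1 of 6 rose and 3 fell in H1650, where 63.9% of all tested genes passed. In PC9, where 59.9% passed, 4 of 6 rose and none fell, and DHRS3 and RDH13 did not pass. Without BrM control replicate 1 the H1650 count of 4 goes to 2. Of the CYP26 enzymes, which clear retinoic acid, CYP26A1 rose in H1650 by 2.37 ± 0.226, from 0.673 to 3.42 CPM, and did not pass in PC9 (0.45 ± 0.290), where it fell under S100A9-inh (-0.86 ± 0.305). CYP26B1, the most highly counted of them, fell by 0.22 ± 0.0695 in H1650 and fell by 0.42 ± 0.106 in PC9, and rose under S100A9-inh by 0.60 ± 0.105 in PC9. CYP26C1 rose in H1650 by 2.70 ± 0.466, from 0.130 to only 0.878 CPM. From BrM to Tr-BrM control 2 of 3 tested CYP26 genes rose and 1 fell in H1650 (63.9% of all tested genes passed). In PC9 none of 2 rose and 1 fell (59.9%). Under S100A9-inh against Tr-BrM control none of 3 passed in H1650 (29.2%), and 1 of 2 rose and 1 fell in PC9 (52.5%). Of these 2 calls under S100A9-inh in PC9, 1 is lost with DESeq2, without Tr-BrM control replicate 2 and without S100A9-inh replicate 1.

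Among the nuclear receptors, RARG fell from BrM to Tr-BrM control in both lines (-1.17 ± 0.0388 and -0.67 ± 0.0487), and rose under S100A9-inh in PC9 by 0.87 ± 0.0484, to 109 ± 3.79 CPM against 94.7 ± 3.94 in BrM. RXRA, the partner receptor, rose by 1.08 ± 0.0344 in H1650 and fell by 0.44 ± 0.0405 in PC9, and under S100A9-inh it fell in H1650 (-0.43 ± 0.0325) and rose in PC9 by 0.59 ± 0.0404. RARB, itself switched on by retinoic acid in many cells, had at most 0.840 CPM in a group mean of H1650 and 0.409 CPM in PC9. At that low level it rose by 2.60 ± 0.529 from BrM to Tr-BrM control in H1650 (adjusted p = 9.81e-05) and fell by 1.21 ± 0.412 under S100A9-inh (adjusted p = 0.0259), and it did not pass in PC9. In all, 3 of 6 tested receptors rose and 2 fell in H1650 (63.9% of all tested genes passed), and 1 rose and 2 fell in PC9 (59.9%). The step to S100A9-inh saw 3 fall and none rise in H1650 (29.2%), and 3 rise and none fall in PC9 (52.5%). The H1650 count of 3 goes to 1 with DESeq2 or without Tr-BrM control replicate 3, and to 0 with glmTreat, edgeR's test against a 1.5-fold change (1 at an unadjusted p under 0.05).

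Genes known to respond to retinoic acid were split in direction at each step. From BrM to Tr-BrM control 10 of 27 tested rose and 14 fell in H1650 (median -0.21), where 63.9% of all tested genes passed. In PC9 8 of 22 rose and 10 fell (median 0.061), where 59.9% passed. The median of all tested genes was -0.0011 and 0.0014. Under S100A9-inh against Tr-BrM control 4 rose and 5 fell in H1650 (median -0.0065), and 7 rose and 9 fell in PC9 (median -0.18). Of all tested genes 29.2% passed in H1650 and 52.5% in PC9, with medians of -0.00087 and -0.0022. TGM2, a transglutaminase that retinoic acid induces, fell in both lines (-1.01 ± 0.0293 and -0.82 ± 0.0364). NR2F2, an orphan nuclear receptor, rose by 1.87 ± 0.0499 in H1650 and fell by 0.90 ± 0.0492 in PC9, and TNFAIP2 fell by 1.57 ± 0.0387 in H1650 and rose by 0.53 ± 0.0342 in PC9. RARB, CRABP2, STRA6, DHRS3, CYP26A1 and CYP26B1, described above, are in this list too.

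**Figure D4:**
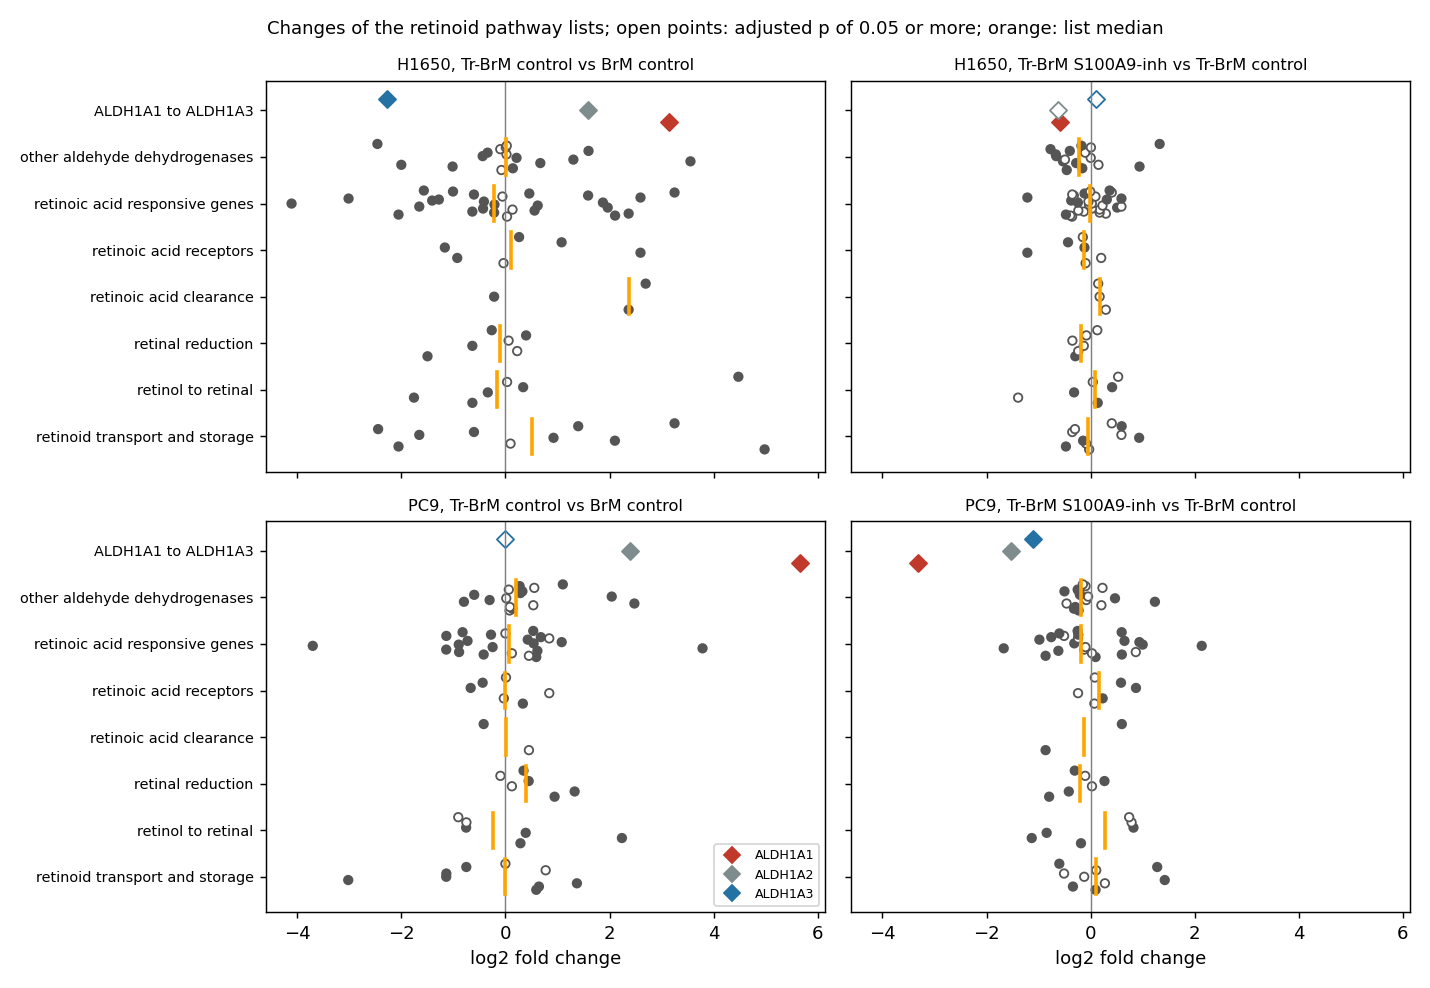
Log2 fold change of every tested gene of the retinoid lists and of the members (diamonds) for 2 comparisons in each line; filled marks have an adjusted p under 0.05, and orange bars are list medians. The retinoic acid responsive genes lie on both sides of 0 in all 4 panels, with medians of -0.21, -0.0065, 0.061 and -0.18.

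Other aldehyde dehydrogenases, which share the fold and the chemistry but mostly act on other aldehydes, are given next. Their list and its counts, here and below, also include AOX1, which is not an aldehyde dehydrogenase. From BrM to Tr-BrM control 6 of 16 tested rose and 5 fell in H1650 (median 0.013), where 63.9% of all tested genes passed. In PC9, where 59.9% passed, 7 of 16 rose and 3 fell (median 0.20). At the step to S100A9-inh, 2 rose and 9 fell in H1650 (median -0.23), and 2 rose and 6 fell in PC9 (median -0.18). The 11 of 16 called in H1650 at that step stand beside 29.2% of all tested genes and the 8 of 16 in PC9 beside 52.5%, and glmTreat leaves 2 and 1. ALDH2, the mitochondrial enzyme of ethanol metabolism, rose in both lines, from 2.27 ± 0.146 to 26.8 ± 1.38 CPM in H1650 (3.56 ± 0.0991) and from 0.323 ± 0.161 to 1.81 ± 0.643 CPM in PC9 (2.48 ± 0.391). ALDH1B1, a mitochondrial enzyme of the same class, fell by 1.02 ± 0.0559 in H1650 and rose again under S100A9-inh by 0.94 ± 0.0549. ALDH3A1 fell by 0.80 ± 0.0649 in PC9 and rose under S100A9-inh by 1.24 ± 0.0636, against the direction of ALDH1A1. AOX1, an aldehyde oxidase that can also oxidise retinal, fell by 2.46 ± 0.115 in H1650 and rose by 1.10 ± 0.0777 in PC9.

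The protein-coding neighbours were taken as genes of which any base lies within 1 Mb of a member's gene model, so that some start farther away. Distances are between GENCODE starts, the outer ends of the gene models, which lie upstream of the RefSeq starts behind the windows above, by 127 kb for ALDH1A1, 432 kb for the ALDH1A2 window printed and 2.12 kb for ALDH1A3. ANXA1, which encodes the lipid-binding annexin A1 and lies at -71.3 kb from the GENCODE start of ALDH1A1 and -199 kb from its RefSeq start, rose in PC9 by 1.09 ± 0.0350 and fell under S100A9-inh (-0.42 ± 0.0344), the same directions as ALDH1A1 at a smaller size. In H1650 ANXA1 fell at both steps (-0.19 ± 0.0320 and -0.23 ± 0.0320). From BrM to Tr-BrM control 5 of 6 tested neighbours of ALDH1A1 rose and 1 fell in H1650, with a median of 0.35. In PC9 3 rose and 1 fell, with a median of 0.36. The neighbour counts here and below stand beside 63.9% of all tested genes that passed in H1650 and 59.9% in PC9. LRRK1, the kinase gene at 41.5 kb from the start of ALDH1A3, fell by 1.01 ± 0.0758 in H1650, as ALDH1A3 did, and fell by 0.54 ± 0.102 in PC9, where ALDH1A3 did not pass. Under S100A9-inh in PC9 LRRK1 rose by 0.42 ± 0.104 while ALDH1A3 fell. Of the tested neighbours of ALDH1A3 from BrM to Tr-BrM control, 2 of 11 rose and 4 fell in H1650 and 2 of 10 rose and 4 fell in PC9, and for ALDH1A2 6 of 14 rose and 7 fell in H1650 and 4 of 13 rose and 3 fell in PC9.

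**Figure D5:**
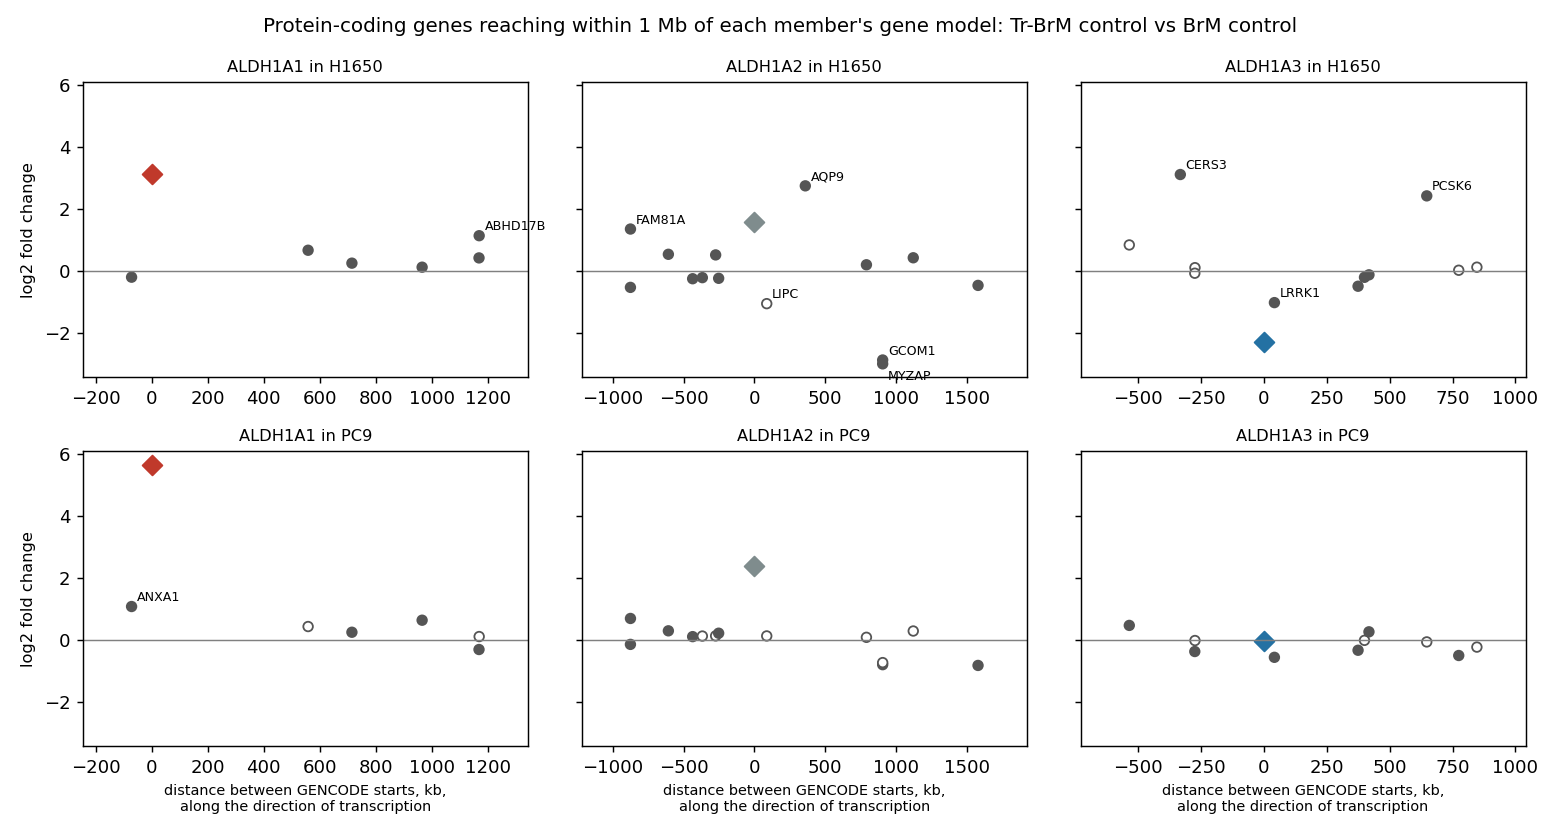
Log2 fold change from BrM to Tr-BrM control of each member (at 0 kb) and of the tested protein-coding genes that reach within 1 Mb of its gene model, against the distance between GENCODE starts in kb. In PC9 ALDH1A1 stands at 5.66 and its nearest neighbour ANXA1 at 1.09.

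Across the 18 libraries, the genes with the pattern nearest to that of ALDH1A1, by Euclidean distance of log2 CPM centred on each line's mean among 9907 candidates, were KRT13 (2.53), BMP7 (2.69), S100A8 (3.05), SLC1A3 (3.70) and SVEP1 (3.71). S100A8, which encodes the partner of S100A9 in calprotectin, rose by 2.19 ± 0.0565 in H1650 and 7.23 ± 0.189 in PC9, and fell under S100A9-inh in both (-1.36 ± 0.0503 and -4.98 ± 0.144). KRT13, a keratin of stratified epithelia, rose by 3.78 ± 0.176 and 4.68 ± 0.273 and fell (-1.14 ± 0.119 and -1.67 ± 0.186). SLC1A3, a glutamate transporter, is in the astrocyte list as well and rose in both lines, by 2.82 ± 0.0435 and 2.69 ± 0.0621. For ALDH1A3 the nearest were LRP12 (0.819), GALNT14, COL26A1, SULF2 and FGFRL1, and for ALDH1A2 SCARA3 (1.76), FUT4, KIAA0040, FGFR3 and UCP2. LRP12 fell by 2.64 ± 0.0707 in H1650 from BrM to Tr-BrM control and fell by 0.74 ± 0.0769 under S100A9-inh in PC9, the steps at which ALDH1A3 fell, and it also rose under S100A9-inh in H1650 by 0.48 ± 0.0839 and fell from BrM to Tr-BrM control in PC9 by 0.20 ± 0.0710. The libraries share their 6 groups, so these distances describe group patterns and carry no test.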

How the data were processed

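Per the labels' protocols, total RNA was poly-A selected for TruSeq-compatible libraries. The authors deposited raw read counts per gene, whole numbers that are not normalized, in 1 table of 9 libraries for each line, and no column was left unmapped. Per the submitters' processing notes, STAR, GRCh38, R 4.0.1 and DESeq2 1.28.1 were used. The sources used here do not give the counting tool, annotation release or strand setting.

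The 9 libraries of a line entered 1 quasi-likelihood fit in edgeR 4.0.16 (R 4.3.3), with TMM scaling, its filterByExpr filter, Benjamini-Hochberg adjustment over the genes tested, 17937 in H1650 and 16169 in PC9, and a threshold of 0.05. SE was taken as the log2 fold change without its sign divided by the root of F. CPM are counts scaled to a TMM-adjusted library of 1 M. Differences between lines were interaction contrasts over 18 libraries. With a common biological coefficient of variation of 0.0335 (H1650) and 0.0433 (PC9), small differences pass. Libraries were grouped by their labels; of 18 replicate pairs none was identical, with a chi-square of 1.54 to 6.51 per degree of freedom. At this depth a gene with few counts has a wide error, and no interval covers more than the spread between these libraries.

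Symbols came from a table of gene names, and positions and exon lengths from GENCODE 29, whose versions of the 3 genes are older than those in the tables, so lengths are approximate. The members, the 7 retinoid and aldehyde dehydrogenase lists and the marker lists were chosen with earlier results of these data known. Named were the members, S100A9, up to 4 tested genes per list, line and comparison with the smallest p or with directions that differ between lines, neighbours within 1 Mb, overlapping genes and the 5 genes nearest in pattern (at least 5 CPM in a group of each line); the text prints some of these, chosen after their values were seen. The fit was tested on simulated counts for BrM against Tr-BrM control. It recovered 74% of genes changed 1.5-fold in each line, 98% (H1650) and 92% (PC9) of those changed 2-fold, and 100% of those changed 4-fold. Of the genes called, 4.615% and 5.181% had not been changed. Only genes averaging above 1 CPM were changed, so the recovery does not cover lower genes. The changed genes were a small part of all, whereas most tested genes passed at this step in these data. Alternatives were other scalings and filters, DESeq2 1.42.0, edgeR's glmTreat against a 1.5-fold change, fits on the compared groups only, other gene lengths, and leaving out each replicate.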

Additional observations from a re-analysis of the deposited data

Results flagged for a closer look

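Of the 9 differences between lines tested for the 3 genes, 5 passed the interaction test (edgeR quasi-likelihood, adjusted p under 0.05), each a difference in log2 fold change of PC9 minus H1650. From BrM to Tr-BrM control it was 2.52 for ALDH1A1, which rose in 3 of 3 Tr-BrM controls of both lines, and 2.27 for ALDH1A3, which fell in H1650 and did not pass in PC9. Under S100A9-inh against Tr-BrM control it was -2.73 for ALDH1A1, with all 3 treated libraries below all 3 controls in each line, and -1.21 for ALDH1A3, which fell in PC9 and did not pass in H1650. Under S100A9-inh against BrM it was 1.06 for ALDH1A3, with all 3 treated libraries below all 3 BrM controls in each line. The labels give no date or batch, and the lines were sequenced under separate library names and deposited in separate tables, so line and any batch between them cannot be told apart.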

How the results depend on the processing

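Over the members' 18 changes within a line, 9 differences between lines and 6 shares, 543 alternative values counted as unchanged. For a change or difference this means the same direction and call, and for a share a value within the SD of its group. ALDH1A1 and ALDH1A3 from BrM to Tr-BrM control in H1650, and ALDH1A1 in PC9 in all 3 comparisons, kept theirs under every alternative run. H1650 ALDH1A1 under S100A9-inh against Tr-BrM control no longer passed with DESeq2 (-0.59, adjusted p = 0.0768), with glmTreat (-0.59, adjusted p = 1) and without S100A9-inh replicate 2 (-0.42); leaving out 1 replicate gave -0.71 to -0.42. H1650 ALDH1A2 in that comparison passed without Tr-BrM control replicate 1 (-0.78, adjusted p = 0.0399), with a range of -0.79 to -0.50. H1650 ALDH1A2 under S100A9-inh against BrM no longer passed with DESeq2 (0.97, adjusted p = 0.0501), with glmTreat (0.95, adjusted p = 0.176), without BrM control replicate 3 or without S100A9-inh replicate 3, with a range of 0.71 to 1.21. PC9 ALDH1A3 from BrM to Tr-BrM control, never called, changed sign with library size only (0.0023), with the upper quartile (0.023) and without each of 3 replicates (range -0.018 to 0.0096). The difference between lines for ALDH1A2 under S100A9-inh passed without PC9 S100A9-inh replicate 1 (-1.30, adjusted p = 0.0378; range -1.30 to -0.63), and that against BrM, never called, ranged from -0.49 to 0.30. The cause of these moves was not tested, apart from glmTreat, which asks for a larger change.

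The share of ALDH1A1 fell without length correction, since ALDH1A1 has the shortest exons of the 3: to 0.761, 22.4 and 15.5% in H1650 BrM, Tr-BrM control and S100A9-inh, and to 2.41, 55.3 and 21.3% in PC9. With the longest transcript's length it was 4.40% and 69.8% in PC9 BrM and Tr-BrM control. Of the list counts 655 kept within 1.5 times and 59 did not, 34 of these with glmTreat. There the retinoic acid responsive genes called from BrM to Tr-BrM control went from 24 to 15 in H1650 and from 18 to 6 in PC9, and the other aldehyde dehydrogenases from 11 to 5 and from 10 to 4. Under S100A9-inh against Tr-BrM control the responsive genes went from 9 to 0 (1 at an unadjusted p under 0.05) and from 16 to 3, and the aldehyde dehydrogenases from 11 to 2 and from 8 to 1. No paired analysis was possible because the labels give library names and no replicate numbers shared between groups.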

Other observations

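The aldehyde dehydrogenases below were chosen after their values were seen. As a list, which includes AOX1, 11 of 16 passed in H1650 and 10 of 16 in PC9 from BrM to Tr-BrM control. That is near the 63.9% and 59.9% of all tested genes. In PC9, ALDH3B2, which acts on lipid aldehydes, rose from BrM to Tr-BrM control by 2.04 ± 0.0621 (log2, SE) and gave -0.05 ± 0.0534 under S100A9-inh against Tr-BrM control, which did not pass the test. ALDH5A1, the succinic semialdehyde dehydrogenase of GABA breakdown, rose in both lines, by 1.60 ± 0.0679 in H1650 and 0.29 ± 0.0691 in PC9, and fell under S100A9-inh in both (-0.40 ± 0.0580 and -0.21 ± 0.0689). In H1650, ALDH3B1 fell at both steps (-0.44 ± 0.0506 and -0.66 ± 0.0541), and in PC9 it gave 0.02 ± 0.0476 and then rose by 0.47 ± 0.0469.

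LPL, which releases fatty acids and takes up retinyl esters, fell in PC9 from 6.89 ± 1.37 to 0.848 ± 0.232 CPM (SD, n = 3) between BrM and Tr-BrM control (log2 -3.02 ± 0.231) and rose under S100A9-inh by 1.43 ± 0.275. NR2F1, an orphan nuclear receptor induced by retinoic acid in many cells, fell in both lines (-4.11 ± 0.142 and -3.70 ± 0.242), and rose under S100A9-inh in PC9 by 2.14 ± 0.288.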
